A study of Mus musculus with 7 samples.

Results

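Microglia are the resident immune cells of the brain. They derive from yolk sac progenitors, depend on signalling through the receptor *Csf1r*, and are a main source in the brain of C1q, the protein that starts the classical complement cascade. During early postnatal life they engulf dying cells and weak synapses, some of them tagged by C1q and C3, and the dorsal midbrain is then still being innervated by the retina. The data described here are the levels of 36 genes of microglia and complement in the dorsal midbrain of mice with and without *Brn3b* (*Pou4f2*), a transcription factor of retinal and midbrain neurons. The 36 genes were taken by name from a fixed list, and each symbol was found among the 52636 genes of the count files. By role they were 13 surface receptors, 5 adaptor or signalling genes, 4 complement components, 3 integrins, 3 transcription factors, 7 lysosomal or other myeloid genes and *Mrc1*, a marker of macrophages at the borders of the brain. All 36 passed the filter on low counts and were tested with 21817 genes in all, and no member had under 15 counts in any library.

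PolyA RNA of the dissected dorsal midbrain was sequenced from 3 control mice (A2, A4 and A6) and 4 cKO mice (B1, B7, B8 and B9). Controls, labelled as heterozygotes, were *Brn3b* flox/+ :: *En1-Cre*, and cKO mice, labelled as homozygotes, were *Brn3b* flox/- :: *En1-Cre*. Both groups therefore carried a copy of the *En1-Cre* driver and a floxed *Brn3b* allele, which expresses human placental alkaline phosphatase once Cre has recombined it, and the controls kept 1 wild-type allele. *En1-Cre* is active in the neural tube of the midbrain and anterior hindbrain, from which microglia do not arise. A2, A6, B1 and B8 were collected at P4, A4 at P3, and B7 and B9 at P2, so that P2 was found only among cKO mice and its effect cannot be told apart from that of genotype in them. The labels do not give litters or sex, so that p-values measure the spread between these 7 mice.

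Counts on genes ranged from 23588248 in A2 to 87572085 in B9, and the P2 libraries B7 and B9 were the 2 deepest. The targeted gene *Pou4f2* stood between 45.8 and 47.4 CPM (TMM-scaled read count relative to the total of the library) in controls and between 9.65 and 11.6 CPM in cKO mice. The midbrain genes *Pax7* (57.7 to 100.3 CPM) and *Pou4f1* (96.3 to 122.2 CPM) were present in every library. One cKO library, B8, stood apart from the other 3 in how its counts depended on transcript length. Among the 17024 genes that averaged 1 CPM or more, those with a longest coding transcript under 1300 bases deviated from the control mean by a median log2 CPM of −0.60 (B1), −0.74 (B7) and −0.69 (B9), but of −0.07 in B8. For transcripts of 5000 bases or more the same medians were 0.49, 0.65, 0.61 and, in B8, 0.0. Short genes were thus lower, and long ones higher, in 3 of 4 cKO libraries, and the members are described with and without B8.

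The members were present in all libraries, and most were measured at a lower level in cKO mice, without passing the test. The 3 chains of C1q were at 44.4% to 49.5% of their control means, *Trem2* was at 50.5% and *Aif1* at 52.1%, whereas *Csf1r* was at 87.2% and *Cx3cr1* at 108.0%. Of the 36 members, 30 had a log2 fold change below 0, where 49.8% of all genes tested did, and their median was −0.57 against 0.0 over all genes tested. With the edgeR quasi-likelihood test and Benjamini-Hochberg adjustment, 0 members passed at an adjusted p of 0.05 in either direction, beside 0.0% of all genes called higher and 0.00458% called lower, the single gene called being *Pou4f2*. At an unadjusted p of 0.05, 13 members were lower and 1 (*Sall1*) was higher, where 13.7% of all genes tested were lower and 16.7% were higher. In this bulk tissue, fewer microglia and less of these RNAs per microglial cell cannot be told apart.

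The plot of all members by library orders them by the length of their longest coding transcript. The lowest of the 7 libraries was B7, a P2 mouse, for 25 members, and the highest was the control A6 for 22 members. Of the 36 members, 25 in B1, 29 in B7 and 25 in B9 were below every control, but only 5 in B8, where 28 lay within the range of the controls. Of all genes tested, 38.2% in B1, 39.8% in B7, 39.2% in B9 and 21.6% in B8 were below every control.

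**Figure D1:**
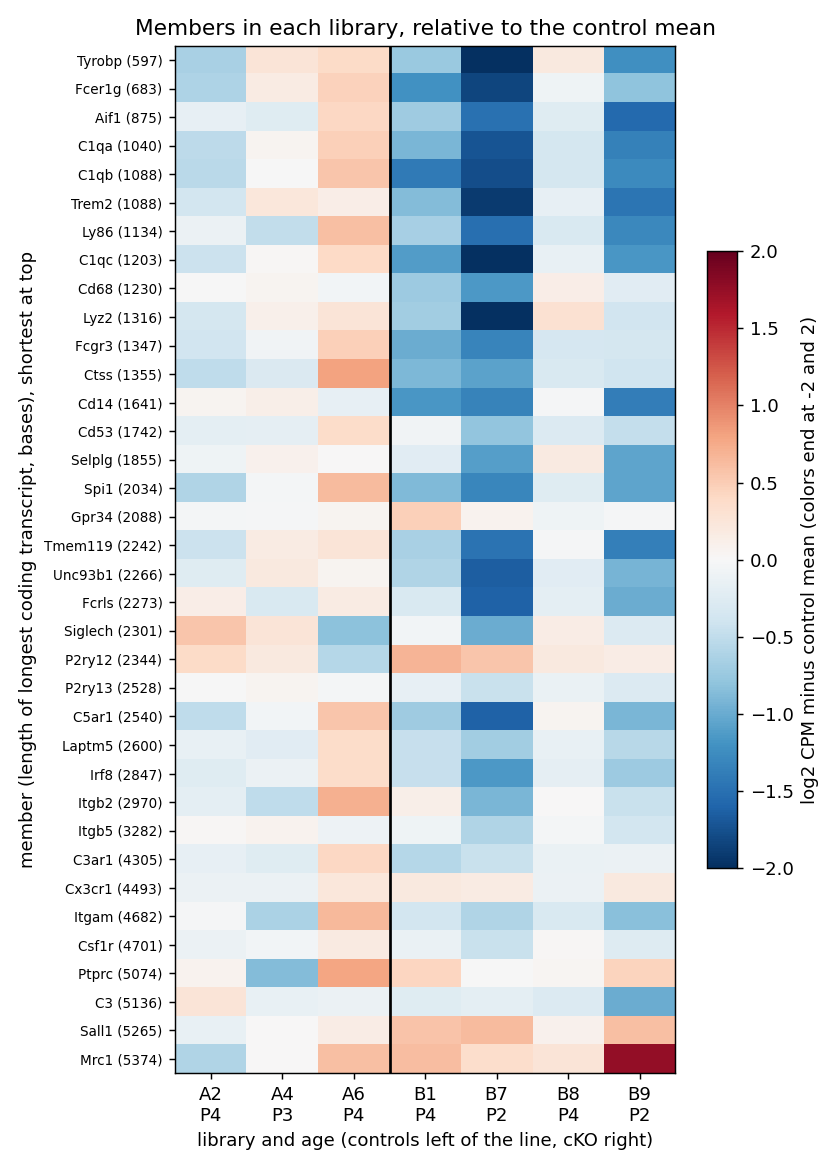
Level of each of the 36 members (rows, shortest coding transcript at the top, length in bases in parentheses) in each of the 7 libraries (columns, with age), as log2 CPM minus the mean of the 3 controls. Blue cells gather in the upper rows of B1, B7 and B9, column B8 is pale, and *Mrc1* and *Sall1*, with the longest transcripts, are red in the cKO libraries.

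Promoter sequences are shown for the members because PU.1, the product of the member *Spi1*, is known to bind purine-rich sites in myeloid promoters. In the RefSeq promoter table (GRCm38.p6), which gives 250 bases before and 50 after each transcript start, 26 of 36 members had an entry. The letters GAGGAA, the core of the PU.1 site, were searched on both strands, and 15 of 26 members (57.7%) held them in their first window, compared with 28.3% of 27025 genes. Windows of 26 bases are printed 5′ to 3′ on the strand that carries the letters, which stand in capitals, for complement, receptor, integrin and lysosomal members whose values follow.
C1qb, chr4:136886215-136886240, minus strand: agcaggatggGAGGAAcagaggggtg
C1qc, chr4:136893092-136893117, plus strand: gtgccaaaatGAGGAAgtgtctgccg
Trem2, chr17:48346351-48346376, minus strand: gtgagggaggGAGGAAggaaaggagg
Itgam, chr7:128062546-128062571, plus strand: ttttctcccgGAGGAAggctacagag
Ctss, chr3:95526776-95526801, minus strand: catccacaatGAGGAAgtgaactttc
Aif1, chr17:35176044-35176069, plus strand: caataggatgGAGGAActgggtgcct
The share describes these windows, in which a match is no proof of binding, and a window without the letters says nothing of the factor.

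C1q is built from the products of 3 genes that lie side by side on the minus strand of chromosome 4, from *C1qb* (chr4:136880129-136886187) through *C1qc* (chr4:136889804-136893065) to *C1qa* (chr4:136895917-136898803, GRCm38). *C1qb* was counted at 23.7, 34.3 and 50.4 CPM in controls A2, A4 and A6 and at 12.9, 10.04, 27.02 and 14.2 CPM in cKO mice B1, B7, B8 and B9. For *C1qa* the controls A2, A4 and A6 gave 20.8, 30.9 and 41.4 CPM, and the cKO mice B1, B7, B8 and B9 gave 15.7, 8.97, 23.5 and 11.7 CPM. In the order A2, A4, A6, *C1qc* reached 25.6, 35.02 and 45.4 CPM in controls, and in the order B1, B7, B8, B9 it reached 15.9, 7.79, 30.96 and 15.3 CPM in cKO mice. All 3 had the same order of libraries at the extremes, with A6 highest and B7 lowest, and in each gene B8 was above the control A2 while the other cKO mice were below every control. Their log2 fold changes were −1.17 (SE 0.35) for *C1qb*, −1.06 (SE 0.33) for *C1qa* and −1.02 (SE 0.39) for *C1qc*, with adjusted p of 0.138, 0.138 and 0.14 in edgeR. Summed over the 4 complement components, levels per kilobase of exon were 161.8 to 326.2 TPM in controls and 80.77 to 186.8 TPM in cKO mice.

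The proportions of the C1q chains were set beside each other within each mouse. The ratio of *C1qa* to *C1qb* CPM was 0.867 ± 0.0404 (SD, n = 3) in controls and 0.95 ± 0.179 (SD, n = 4) in cKO mice, with B1 alone above 1 at 1.21 and an SD of 0.0358 among cKO mice without it. The ratio of *C1qc* to *C1qb* was 1.08, 1.02 and 0.901 in A2, A4 and A6, and 1.23, 0.776, 1.15 and 1.08 in B1, B7, B8 and B9, so that cKO mice lay on both sides of the controls. Its SD was 0.197 among cKO mice and 0.0718 without B7, beside 0.0913 among controls, so that in both ratios the wider spread of the cKO mice rested on 1 mouse. Control levels of *C3* were 4.19, 3.15 and 3.21 CPM (A2, A4, A6) and cKO levels were 2.92, 3.06, 2.88 and 1.72 CPM (B1, B7, B8, B9). *C3*, the central component on which all complement pathways meet, had a log2 fold change of −0.41 (SE 0.27, adjusted p = 0.297), or −0.24 without B9. Its 4 cKO values all lay below the 3 controls, as did those of *Aif1* and *P2ry13*, and these were the only 3 members of which this was true. By count, 3 members were lower and 0 higher without overlap, beside 8.01% and 6.03% of all genes tested, so that the lower count was close to the share of all genes. For each of the 3 the exact permutation test gave a two-sided p of 0.0571, the smallest that 3 against 4 mice allow. Any gene without overlap gets this p, so it adds nothing to the count.

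**Figure D2:**
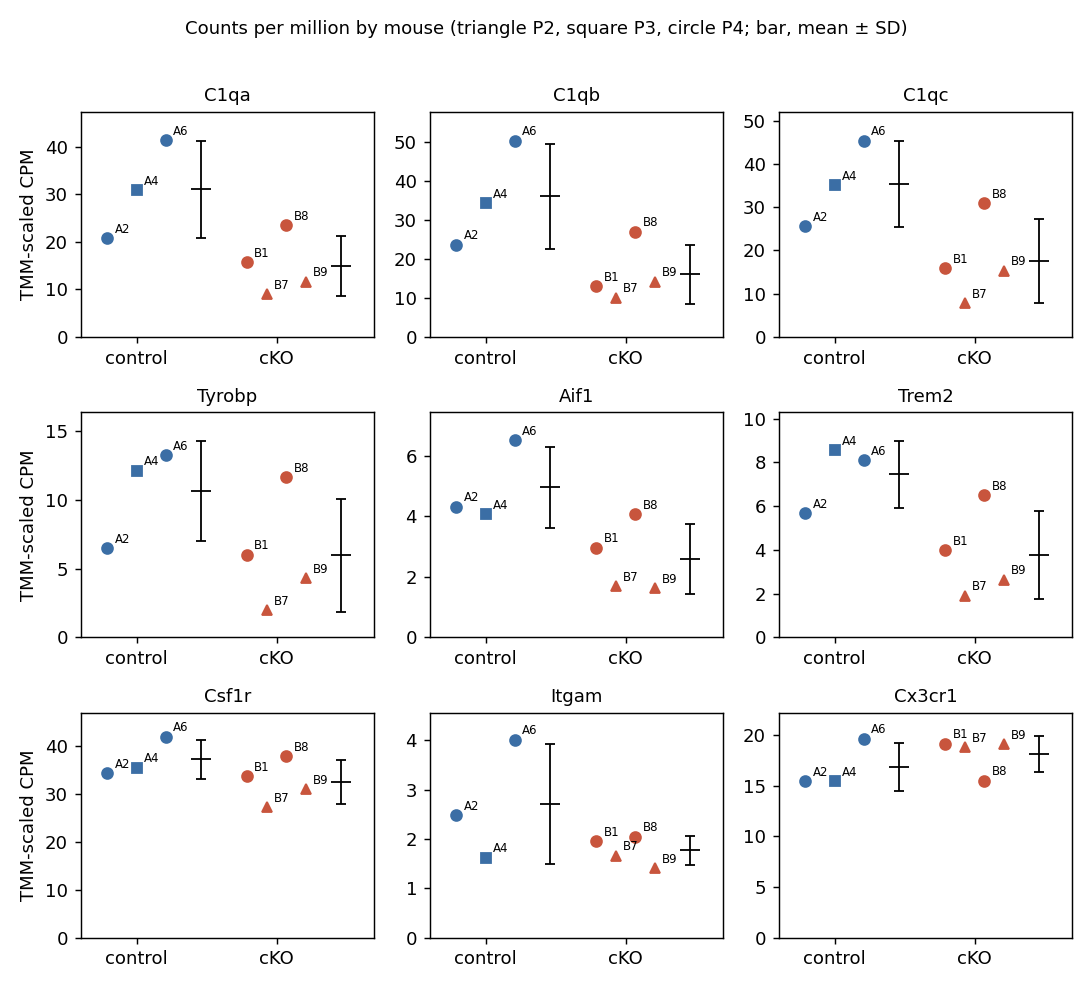
TMM-scaled CPM of 9 members in each mouse (blue, control; red, cKO; triangles P2, square P3, circles P4), with the mean and SD of each group beside the points. For the C1q chains, *Tyrobp* and *Trem2*, B8 lies among the controls and B1, B7 and B9 lie lower, whereas the groups overlap widely for *Itgam* and *Cx3cr1*.

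*Tyrobp* encodes the adaptor DAP12, which carries the signal of *Trem2*, a receptor for lipids and apolipoproteins that drives phagocytosis. *Tyrobp* was counted at 6.47, 12.1 and 13.3 CPM in controls A2, A4 and A6 and at 6.02, 1.97, 11.7 and 4.33 CPM in cKO mice B1, B7, B8 and B9. The groups overlapped, since B8 exceeded A2, and the log2 fold change was −0.84 (SE 0.50, adjusted p = 0.264), or −0.53 without B7 and −1.4 without B8. For *Trem2* the controls A2, A4 and A6 gave 5.68, 8.54 and 8.11 CPM, and the cKO mice B1, B7, B8 and B9 gave 3.99, 1.91, 6.503 and 2.63 CPM. *Trem2* had a log2 fold change of −1.0 (SE 0.38, adjusted p = 0.14), and the ratio of *Tyrobp* to *Trem2* was 1.4 ± 0.251 (SD, n = 3) in controls and 1.49 ± 0.329 (SD, n = 4) in cKO mice. The other adaptors and signalling genes with a value below 0 were *Fcer1g*, the common Fc receptor gamma chain, at −0.93, *Ly86*, partner of the radioprotective receptor RP105, at −0.95, and *Unc93b1*, which brings Toll-like receptors to endosomes, at −0.79. *Ptprc*, the pan-leukocyte phosphatase CD45, stood at 0.10 (−0.28 once the trend over transcript length and GC content was removed) and was low in all libraries, at 1.22 to 3.94 CPM.

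Among the lysosomal and other myeloid genes, *Aif1* encodes IBA1, the calcium-binding protein used to stain microglia. In the order A2, A4, A6, *Aif1* reached 4.315, 4.072 and 6.501 CPM in controls, and in the order B1, B7, B8, B9 it reached 2.956, 1.692, 4.065 and 1.622 CPM in cKO mice. Every cKO value was below every control, although B8 was nearly level with A4, and the log2 fold change was −0.95 (SE 0.36, adjusted p = 0.139). Control levels of *Tmem119* were 3.86, 5.87 and 6.25 CPM (A2, A4, A6) and cKO levels were 3.31, 1.85, 5.15 and 1.998 CPM (B1, B7, B8, B9). *Tmem119*, a surface protein that sets microglia apart from other macrophages, had a log2 fold change of −0.80 (SE 0.37, adjusted p = 0.172). *Ctss* was counted at 13.7, 15.8 and 33.9 CPM in controls A2, A4 and A6 and at 10.4, 9.22, 15.8 and 14.7 CPM in cKO mice B1, B7, B8 and B9. For *Ctss*, the lysosomal protease cathepsin S, the control A6 stood well above A2 and A4, and the log2 fold change of −0.75 did not pass (SE 0.32, adjusted p = 0.156) and was −0.24 without A6. For *Lyz2* the controls A2, A4 and A6 gave 8.38, 11.5 and 12.7 CPM, and the cKO mice B1, B7, B8 and B9 gave 6.63, 2.28, 13.3 and 8.15 CPM. *Lyz2*, lysozyme of myeloid cells, was highest in the cKO mouse B8 and lowest in the cKO mouse B7, so that the spread within cKO mice exceeded the difference between groups, with a log2 fold change of −0.52, or −0.20 without B7 and −0.94 without B8. The lysosomal genes *Cd68* (−0.41) and *Laptm5* (−0.47) and the tetraspanin *Cd53* (−0.41) were closer to 0, and with the trend over transcript length removed they stood at −0.07, −0.22 and −0.32. *Cd68* was at −0.21 without B7 and −0.65 without B8, and *Laptm5* was at −0.26 and *Cd53* at −0.2 without A6.

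Of the 13 surface receptors, 10 had a value below 0, with a median of −0.36. *Csf1r* encodes the receptor for the growth factors CSF1 and IL-34, without which microglia are lost. In the order A2, A4, A6, *Csf1r* reached 34.3, 35.5 and 41.96 CPM in controls, and in the order B1, B7, B8, B9 it reached 33.7, 27.2, 37.9 and 31.04 CPM in cKO mice. The controls A2 and A4 and the cKO mice B1 and B8 lay close together, and the log2 fold change was −0.20 (SE 0.15, adjusted p = 0.38), or −0.11 without either A6 or B7. Control levels of *Cx3cr1* were 15.4, 15.4 and 19.6 CPM (A2, A4, A6) and cKO levels were 19.1, 18.8, 15.5 and 19.1 CPM (B1, B7, B8, B9). *Cx3cr1*, the fractalkine receptor, differed by less than the spread between mice, with a log2 fold change of 0.11 (SE 0.16, adjusted p = 0.658) that turned to −0.13 once the trend over transcript length was removed. It lay between 0.04 without A2 and 0.23 without A6. *P2ry12* was counted at 14.1, 12.4 and 7.27 CPM in controls A2, A4 and A6 and at 17.3, 16.02, 12.5 and 11.97 CPM in cKO mice B1, B7, B8 and B9. *P2ry12*, the ADP receptor by which microglia sense injury, was lowest in the control A6, where most other members were highest, and its log2 fold change was 0.36 (SE 0.25, adjusted p = 0.324), or 0.13 without A6 and 0.54 without A2. The other purine or lipid receptors, *P2ry13* (−0.26) and *Gpr34* (0.12), also stood near 0. The remaining receptors, none of which passed the test, stood at −0.91 for *Cd14*, a coreceptor for lipopolysaccharide, −0.81 for *C5ar1* and −0.33 for *C3ar1*, receptors for complement fragments, −0.74 for the Fc receptor *Fcgr3*, −0.70 for *Fcrls*, −0.36 for *Siglech* and −0.47 for *Selplg*. With 1 mouse left out at a time, *Cd14* ranged from −1.38 to −0.74, *C5ar1* from −1.21 to −0.48 and *C3ar1* from −0.46 to −0.1. For *Fcgr3* the range was −0.92 to −0.47, for *Fcrls* −0.92 to −0.48, for *Siglech* −0.67 to −0.07 and for *Selplg* −0.79 to −0.29.

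For 3 of the receptors and 1 integrin another annotated gene shares exon sequence, and the strand option of the counting is not given in the sources used here. *P2ry12* lies within *Med12l*, on the opposite strand, and *Med12l*, with a longest coding transcript of 11006 bases, stood at 10.2 to 19.1 CPM in controls and at 52.4, 72.5, 17.9 and 57.8 CPM in the cKO mice B1, B7, B8 and B9. *Csf1r* overlaps *Hmgxb3*, which stood at 22.6 to 26.6 CPM in controls and 25.5 to 41.4 CPM in cKO mice. *Cx3cr1* overlaps *Gm33858*, at no more than 0.456 CPM in any library, and *Itgam* overlaps *Gm49368*, on the same strand, at no more than 0.0235 CPM. Whether reads on exons shared by *Itgam* and *Gm49368* were counted is not known, since the overlap option is not given either. The part of *Med12l* and *Hmgxb3* reads in the counts of *P2ry12* and *Csf1r* was not tested.

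Itgam and Itgb2 pair to form complement receptor 3, which binds fragments of C3 on tagged synapses and debris. For *Itgam* the controls A2, A4 and A6 gave 2.49, 1.62 and 4.02 CPM, and the cKO mice B1, B7, B8 and B9 gave 1.96, 1.66, 2.05 and 1.41 CPM. *Itgam* varied more among the controls than between groups, with a log2 fold change of −0.62 (SE 0.33, adjusted p = 0.222) that was −0.22 without the control A6. Its partner *Itgb2* stood at −0.38 but at 0.08 without A6, and *Itgb5*, an integrin subunit found in many brain cells besides microglia, at −0.26, which was −0.07 once the trend over transcript length was removed and 0.02 with that over exon length removed instead. Of the 36 members, *Itgb2*, *Ptprc* (−0.24 without A4) and *Gpr34* (−0.01 without B1) were the 3 whose value changed sign when any 1 mouse was left out.

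The transcription factors differed in direction, and none passed the test. In the order A2, A4, A6, *Spi1* reached 2.28, 3.37 and 5.44 CPM in controls, and in the order B1, B7, B8, B9 it reached 1.85, 1.38, 2.91 and 1.646 CPM in cKO mice. *Spi1*, which encodes PU.1, the factor that all myeloid cells require, had a log2 fold change of −0.93 (SE 0.36, adjusted p = 0.14), or −0.55 without A6, and *Irf8*, which acts with PU.1, stood at −0.62. Control levels of *Sall1* were 17.8, 19.7 and 21.8 CPM (A2, A4, A6) and cKO levels were 29.2, 30.4, 20.8 and 29.96 CPM (B1, B7, B8, B9). *Sall1*, a factor of microglial identity that neural progenitors also express, was above every control in B1, B7 and B9 and within their range in B8, with a log2 fold change of 0.48 (SE 0.17, adjusted p = 0.138) that was 0.20 once the trend over transcript length was removed. *Mrc1* was counted at 6.39, 9.77 and 14.8 CPM in controls A2, A4 and A6 and at 14.9, 12.4, 11.6 and 32.8 CPM in cKO mice B1, B7, B8 and B9. *Mrc1*, the mannose receptor of perivascular and meningeal macrophages, was highest in the P2 mouse B9 and had a log2 fold change of 0.80 (SE 0.41, adjusted p = 0.202), or 0.34 without that trend and likewise 0.34 when B9 alone was left out.

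The members did not all vary together over the 7 libraries, each of which contributes one point and its own depth and length trend. The Pearson correlation of a member's log2 CPM with the mean of the other 35 was 1.0 for *Irf8*, 0.99 for *C1qc* and *C5ar1*, 0.98 for *Csf1r* and 0.96 for *Tyrobp*. It was −0.76 for *Sall1*, −0.73 for *P2ry12*, −0.32 for *Cx3cr1* and *Mrc1* and −0.2 for *Gpr34*. *Csf1r*, although its fold change was small, thus had nearly the same order of libraries as *C1qc*, within a narrower range. Among the 10 genes outside the list whose log2 CPM was most like the members' mean, of 16989 searched over 7 libraries, were *Crtc2* (r = 0.9913), *Arl16*, *Gmfg-ps*, *4930447F24Rik*, *4931440F15Rik*, *Epb41l4aos*, *Gm43088*, *1500026H17Rik* and *Cebpd* (r = 0.979).

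Short members were set beside long ones, because counts in these libraries moved with transcript length. Some long members, such as *Itgb5*, *Sall1* and *Mrc1*, are also expressed by other cells. The number of microglia was not tested. Of the genes named for this comparison, *Tyrobp* has a longest coding transcript of 597 bases, *Aif1* of 875, *C1qa* of 1040, *C1qb* of 1088 and *C1qc* of 1203, whereas those of *Itgam* and *Csf1r* are 4682 and 4701 bases long. The 5 short genes had log2 fold changes of −1.17 to −0.84 with a median of −1.02, and the 2 long ones −0.62 and −0.20, a difference in medians of −0.61. When all members were divided at their median exon length of 2632.5 bases, the 18 shorter ones had a median of −0.78 and the 18 longer ones of −0.40. This difference of −0.38 was −0.62 for the controls against the P2 cKO mice, −0.17 against the P4 cKO mice and −0.11 between P4 mice alone, and −0.56 without B8. When they were divided at the median length of the longest coding transcript, 2254 bases, the medians were −0.88 and −0.35. Over the 36 members the log2 fold change correlated with log2 transcript length at r = 0.70, and over 17024 genes at r = 0.48, given as a description because the members share cells and libraries.

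All genes followed the same direction, and the median of the members lay below that of all genes in each class. Members with transcripts under 1300 bases had a median log2 fold change of −0.95 (9 members) where all genes of that class had −0.50 (2501 genes). From 1300 to 2000 bases the medians were −0.63 (6 members) and −0.33, from 2000 to 3000 bases −0.55 (12 members) and −0.13, and from 3000 to 5000 bases −0.26 (5 members) and 0.12. For 5000 bases or more they were 0.29 (4 members, *Ptprc*, *C3*, *Sall1* and *Mrc1*) and 0.46. GC content moved with the result too, since the 18 members with GC content under 51.225% had a median of −0.44 and the 18 others of −0.80.

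**Figure D3:**
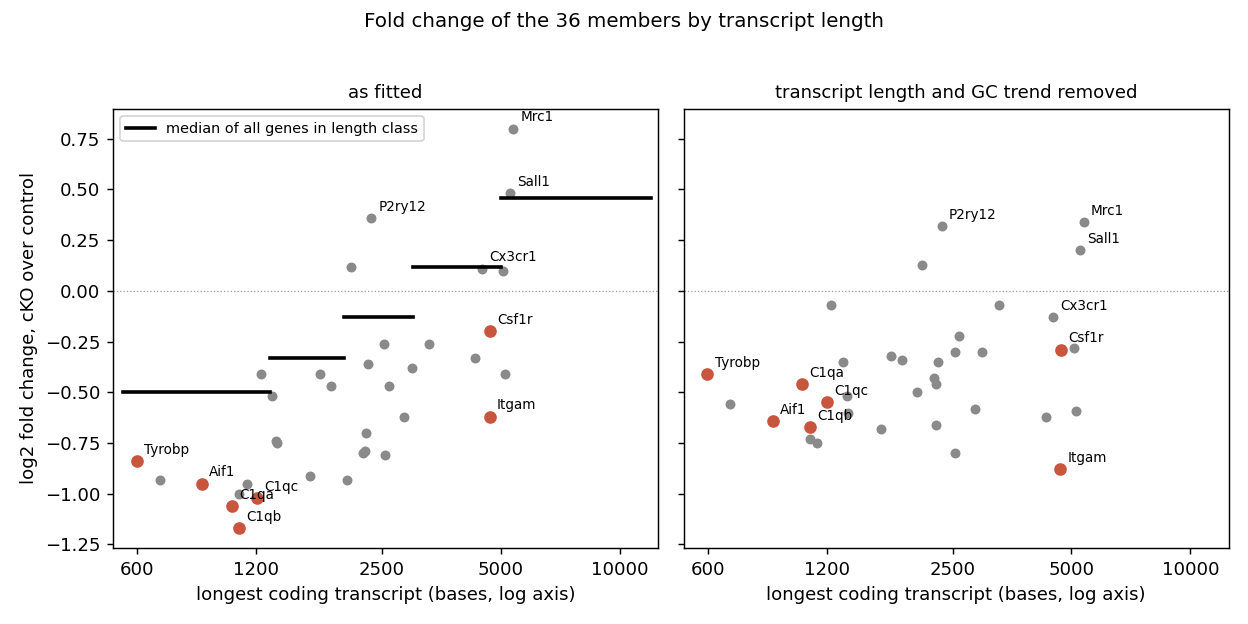
Log2 fold change (cKO over control) of the 36 members against the length of their longest coding transcript (log axis), as fitted (left, with the median of all genes in each length class as black bars) and after a smooth trend over transcript length and GC content was removed from each library (right). On the left most members descend toward short lengths below the black bars, and on the right the short genes in red (C1q, *Tyrobp*, *Aif1*, from −0.67 to −0.41) lie between the long genes in red, *Itgam* (−0.88) and *Csf1r* (−0.29).

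Removing from each library its smooth trend over transcript length and GC content moved the 5 short genes named above toward 0 and *Csf1r* and *Itgam* away from it, while other members with long transcripts, such as *Sall1* and *Mrc1*, moved toward 0. This correction was chosen after the data were seen, because the exon length first used counts exons of rare transcripts (4946 bases for *Trem2*, whose longest coding transcript has 1088). The 5 short genes then had a median of −0.55 and *Csf1r* and *Itgam* of −0.58, so that their difference was 0.03 in place of −0.61. Over all members a difference remained. The split at exon length gave −0.49 for shorter and −0.35 for longer members, a difference of −0.14 in place of −0.38. The split at transcript length gave −0.51 and −0.3, a difference of −0.21 in place of −0.53. *C1qb* stood at −0.67, *Aif1* at −0.64, *C1qc* at −0.55, *C1qa* at −0.46 and *Tyrobp* at −0.41, and *Itgam* at −0.88 and *Csf1r* at −0.29. Over the 36 members the median was −0.45, 32 were below 0, and the correlation with transcript length was 0.34 where that over all genes was −0.02. With the trend over exon length and GC content removed instead, the medians were −0.63 and −0.48 for the genes named above and −0.47 over all members. After the correction for exon length 0 members passed the edgeR test (9 at an unadjusted p of 0.05, beside 25.6% of all genes), and after that for transcript length 0 passed (7 at an unadjusted p of 0.05, beside 22.7% of all genes), while in each case 3 members were lower without overlap (0 higher), beside 8.64% and 5.8% of all genes after the exon length correction and 8.09% and 5.53% after the transcript length correction. Removed alone, the exon length trend left *C1qb*, *C1qa*, *C1qc*, *Tyrobp* and *Aif1* at −0.89, −0.77, −0.8, −0.56 and −0.69. The GC trend removed alone left them at −0.93, −0.73, −0.79, −0.72 and −0.94. *Csf1r* was at −0.34 with exon length alone removed and at −0.04 with GC alone removed, and *Itgam* at −0.69 in both. A part of the lower level of the short members thus moved with length and GC content, removed together. Another part was left after their removal, within the spread between mice.

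The same was seen library by library. The median member was at −0.16, −0.02 and 0.36 from the control mean in A2, A4 and A6, and at −0.51, −1.12, −0.12 and −0.64 in B1, B7, B8 and B9. Short members alone were at −0.72, −1.48 and −0.86 in the same order without B8, and long ones at −0.24, −0.65 and −0.50. After the trend over transcript length and GC content was removed, short members were at −0.30, −0.88 and −0.35 and long ones at −0.23, −0.70 and −0.35 in the same 3 libraries. B8 was at −0.11 for short and −0.12 for long members before, and at −0.09 and −0.14 after. In the control A2 short and long members were at −0.31 and −0.12 after it, so that B1 and B9 were near A2 for short members (−0.30 and −0.35) and below it for long ones, and B7 remained the lowest library.

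**Figure D4:**
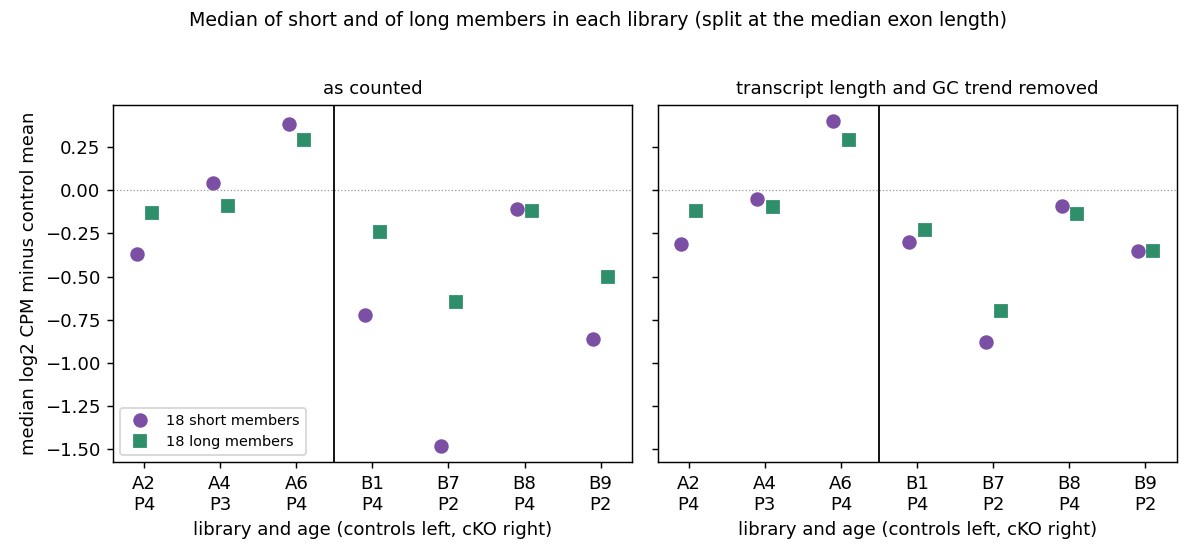
Median log2 CPM, minus the control mean, of the 18 shorter (circles) and 18 longer members (squares) in each library, as counted (left) and after the trend over transcript length and GC content was removed (right). Circles lie well under squares in B1, B7 and B9 on the left and near them on the right, where B7 is still the lowest library.

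Ratios to *Csf1r* within a library do not depend on its sequencing depth. They do carry its trend over transcript length, since *Csf1r* has a far longer transcript than the C1q chains, *Tyrobp* and *Aif1*. With the trend over transcript length and GC content removed, the fold change of *Csf1r* was −0.29. Those of the C1q chains were then −0.67 to −0.46, of *Tyrobp* −0.41 and of *Aif1* −0.64. The ratios that follow are without this correction. The C1q chains summed to 2.04, 2.82 and 3.27 times *Csf1r* in A2, A4 and A6 and to 1.32, 0.985, 2.15 and 1.33 times in B1, B7, B8 and B9, in CPM. B8 again lay among the controls. *Tyrobp* was at 0.189, 0.342 and 0.317 of *Csf1r* in controls and at 0.178, 0.0724, 0.307 and 0.139 in cKO mice, and *Aif1* at 0.126, 0.115 and 0.155 and at 0.0876, 0.0622, 0.107 and 0.0523. *Itgam*, with a transcript about as long as that of *Csf1r*, ranged from 0.0457 to 0.0957 in the control group and from 0.0454 to 0.061 among cKO mice, so that the groups overlapped. Summed over all members, levels were 626.7 ± 158.8 TPM for the controls (SD, n = 3) and 440.2 ± 93.35 TPM for the cKO mice (SD, n = 4), a ratio of 0.702. For the 18 shorter members the ratio was 0.626 and for the 18 longer ones 0.958. The longer ones held *Itgb5*, *Sall1* and *Mrc1*, which cells other than microglia also express. Their means were 40.5, 10.96 and 4.731 TPM in controls and 37.9, 17.49 and 9.543 TPM in cKO mice. Without these 3 genes the sum over all other members gave a ratio of 0.658.

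The calls depended on B8. Without it, edgeR called 20 members lower and 2 higher (*Sall1* and *Mrc1*), but it also called 23.1% of all genes lower and 23.7% higher, and the member median was −0.80. Without B8 22 members were lower and 1 (*Sall1*) higher without overlap, beside 28.0% and 28.2% of all genes. With B8 left out and the transcript length trend removed, 10 members were called lower and 0 higher, beside 14.0% and 12.7% of all genes, and the member median was −0.58. The 10 were *C1qb* (adjusted p = 0.0238), *C1qc* (0.0393), *Trem2* (0.0122), *Ly86* (0.0346), *Cd14* (0.0488), *C3ar1* (0.0294), *Fcrls* (0.0356), *Irf8* (0.0487), *Itgam* (0.034) and *Csf1r* (0.0238), so that they held both long genes and 2 of the C1q chains, but neither *Tyrobp* (0.123) nor *Aif1* (0.0566). With the exon length trend removed in place of it, 10 were lower and 1 (*Sall1*) higher, beside 17.7% and 16.0%. Leaving out a library with knowledge of its values is no independent comparison, and these counts are given to show what rests on B8.

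Calls also differed between tools and ages. DESeq2, the tool used in the study, called 2 members lower, *C1qb* (adjusted p = 0.0262) and *C1qa* (adjusted p = 0.0342), and 0 higher, beside 3.04% and 7.41% of all genes. limma-voom with sample quality weights, which reduces the weight of libraries that deviate from their group, called 25 lower and 1 higher (*Sall1*), beside 24.3% and 24.2%. Against the controls, the 2 cKO mice of P2 gave 20 members lower and 2 higher (*Sall1* and *Mrc1*), beside 24.0% and 22.9%, with a member median of −0.83. The 2 cKO mice of P4, one of which is B8, gave 0 calls of members and a median of −0.29. Between P4 mice alone the median was −0.33, and with age as a covariate it was −0.37, with 0 members called in each of these fits. At an unadjusted p of 0.05 these 3 fits had 0, 1 and 8 members, beside 3.69%, 1.18% and 18.2% of all genes.

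Other genes of complement had a median near 0. Of 29 further complement genes, 19 were tested, 10 were above and 9 below 0, their median log2 fold change was 0.07 (−0.13 after the exon length and GC trend was removed), and 0 were called. Among those with a mean of at least 1 CPM, the lowest was *Cfp*, properdin of the alternative pathway (−0.77). Of 24 further microglia genes all were tested, 19 were below 0 and 0 were called, with a median of −0.38 that was −0.31 after the exon length trend was removed. The 23 with a mean of at least 1 CPM ranged from *Cst3*, the protease inhibitor cystatin C (−0.91), to the sialic acid receptor *Cd33* (0.78). Ligands that act on microglia (10 genes) had a median of −0.06, from *Apoe* (−0.73) to *Pros1* (0.35). Genes of phagocytic microglia in early postnatal white matter (12 of 14 tested) had a median of −0.20, and the 8 with a mean of at least 1 CPM ranged from *Spp1* (−0.75) to *Axl* (0.04). Cytokine and interferon genes (7 of 11 tested) had a median of −0.43, and edgeR called 0 genes of these last 3 lists. Leaving out 1 mouse at a time moved the medians of the 5 lists, in the order given, between −0.08 and 0.24, −0.48 and −0.12, −0.10 and 0.00, −0.50 and −0.01, and −0.67 and −0.28. Of the genes named, *Cst3* was at −1.41 and *Apoe* at −1.17 without B8, *Cd33* at 0.52 and *Pros1* at 0.17 without B9, and *Spp1* at −0.32 without A6. Over all 5 lists 72 genes were tested, of which 4 were higher and 10 lower at an unadjusted p of 0.05, DESeq2 called 0 higher and 2 lower, and limma-voom called 8 higher and 29 lower. The shares of all genes were 16.7% higher and 13.7% lower at the unadjusted p, 7.41% and 3.04% in DESeq2 and 24.2% and 24.3% in limma-voom.

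Markers of other cells were measured beside the members, and edgeR called 0 of the 55 that were tested (6 higher and 3 lower at an unadjusted p of 0.05), DESeq2 3 higher and 0 lower, and limma-voom 11 higher and 17 lower, beside the same shares of all genes as for the lists above. Markers of border macrophages (9 of 9 tested, median −0.13) summed to 28.2 to 64.84 TPM in controls and 32.0 to 70.14 TPM in cKO mice, and the 7 with a mean of at least 1 CPM ranged from *Pf4* (−0.87, or −1.35 without B8) to *Mrc1* (0.80), which is also a member. Their median changed sign with the mouse left out, at 0.1 without A6, 0.08 without B7 and −0.42 without B9. Markers of monocytes and neutrophils (4 of 9 tested, median −1.26) and of lymphocytes (2 of 7 tested, median −0.68) summed to no more than 14.37 and 2.883 TPM in any library, and without A6 their medians were −0.22 and −0.42. Red blood cell markers (5 of 5 below 0, median −1.13), led by *Hba-a1* (−1.43) and nearest 0 for *Alas2* (−0.29), summed to 497.2 to 1849.0 TPM in controls and 257.5 to 686.0 TPM in cKO mice. All 5 were highest in the control A4, at 1849.0 TPM in sum, whereas A2 (580.0 TPM) and A6 (497.2 TPM) lay below B1 (686.0 TPM) and B8 (668.3 TPM), and without A4 the median was −0.17, *Hba-a1* was at −0.17 and *Alas2* at 0.16. Medians were 0.26 for endothelium (*Cldn5* −0.78, *Kdr* 0.64), −0.11 for meninges (*Dcn* −0.33, *Col1a2* 0.40), 0.23 for astrocytes (*Gfap* −0.29, *Aqp4* 0.48) and −0.10 for the oligodendrocyte lineage (*Olig1* −0.60, *Pdgfra* 0.77). They were −0.02 for neurons (*Rbfox3* −0.58, *Gad2* 0.65) and −0.36 for dividing cells (*Ccnb1* −0.60, *Mki67* 0.87). With the exon length and GC trend removed these 6 medians were −0.06, −0.03, −0.18, −0.11, −0.17 and −0.27 in the same order, so that those of endothelium and astrocytes changed sign, and that of red blood cell markers was −0.82. When each mouse in turn was dropped, the 6 medians as first given ranged from 0.15 to 0.38, −0.28 to 0.20, 0.13 to 0.24, −0.26 to 0.03, −0.04 to 0.01 and −0.66 to −0.12, and *Gfap* was at 0.09 without A6. *Cldn5* was at −1.24 without B8, *Dcn* at −0.08 without B7, *Col1a2* at 0.11 without A2 and *Ccnb1* at −0.35 without B9. No marker of these lists was at 0 counts in every library, and the part of other cells in the levels of the members was not tested.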

How the data were processed

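RNA of the dorsal midbrain of 3 control and 4 cKO mice was measured by strand-specific polyA RNA-seq. The authors trimmed the reads, ran TopHat2 with Bowtie 2 against GRCm38.p5 and used HTSeq with GENCODE vM15 for the read count of each gene, and the deposited values are these raw counts, without normalization. The strand and overlap options of HTSeq are not given in the sources used here. Entries that name no gene (30.98% to 38.18% of counts per library) were left out.

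Groups and ages came from the labels. Libraries of one group differed by more than counting error in every pairing, so each was 1 replicate. Gene models were those of GENCODE vM21 on the same build, and 52489 of 52636 identifiers matched. Counts were analysed with edgeR 4.0.16 (filterByExpr with a minimum count of 10, TMM, quasi-likelihood test, Benjamini-Hochberg adjusted p of 0.05), with DESeq2 1.42.0 and limma 3.58.1 as alternatives. CPM values use TMM library sizes, log2 CPM adds a prior count of 2, and TPM was computed from counts and the union of exons. Trends over length and GC content were fitted per library with mgcv 1.9.3 and entered as offsets. Single genes were compared by exact permutation of the 35 splits of 7 mice. The tests of edgeR, DESeq2 and limma-voom were run on simulated counts. For edgeR an exon length trend, the same in all cKO libraries, was also added and removed. Neither the transcript length correction nor a library like B8 was simulated.

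The 36 members, the marker and pathway lists (other complement genes, other microglia genes, ligands, phagocytic microglia, cytokines and markers of 10 other cell types) and the genes named were chosen with earlier results of these data known. Full values were given for 17 members fixed by name or by an extreme log2 fold change at a mean of at least 1 CPM. In the other lists the highest and the lowest such gene were named, and the values of a few genes that these rules select are not reported here. The text also gives a few overlapping genes and midbrain genes, chosen after values were seen. Alternatives were other tests, factors, filters, ages, trend corrections and each mouse left out, and those that remove transcript length or combine a correction with leaving out B8 were added after the data were seen. DESeq2 values of NA stayed NA.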

Additional observations from a re-analysis of the deposited data

Results flagged for a closer look

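Among the 4 cKO mice, 1 mouse lay far from the others for 5 of the 45 values examined (its gap to the nearest mouse, over the whole range, exceeded the limit of the outlier test for 4 values), and chance alone flags about 1 in 20 groups. In B8, the cKO library without the length trend of the others, *Cx3cr1* was lowest at 15.5 CPM, *Sall1* was lowest at 20.8 CPM and *Cd14* was highest at 1.45 CPM, each on the side of the controls. In the P2 mouse B9, *C3* was lowest at 1.72 CPM and *Mrc1* highest at 32.8 CPM. Of the 9 markers of border macrophages, *Mrc1* among them, 4 were above every control in B9, 2 below every control and 3 within the control range. These values were chosen for being extreme, and what set B8 and B9 apart was not tested.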

How the results depend on the processing

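Over all genes, 1 was called by edgeR, against 1994 by DESeq2, 10583 by limma-voom, 0 in P4 mice only, 10425 for the controls against P2 cKO mice, 7116 without B8 once the exon length trend was removed and 5650 without B8 once the transcript length trend was removed. Leaving out each mouse in turn gave 1 to 9867 genes, 0 to 2 members higher and 0 to 20 lower, and only leaving out B8 moved these counts. In the same settings as above, members called lower were 0 in edgeR, 2 in DESeq2, 25 in limma-voom, 20 against P2 cKO mice, and 10 and 10 in both fits without B8 and without a trend. Members called higher were 0 in edgeR, 1 in limma-voom, 2 against P2 cKO mice and 1 without B8 and without the exon length trend. Without B8, 22 members lay below all controls, against 3 with it. *Cx3cr1* changed sign to −0.02 in P4 mice only, −0.13 with the transcript length trend removed and −0.12 when B8 was also left out. The cause of these changes was not tested.

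For the 17 named members, 322 fits kept the direction and the side of the threshold, 49 kept the direction and passed it, and 3 changed sign. The lowest and highest adjusted p over these fits were 0.000271 and 0.989 for *C1qb* and 0.0238 and 0.989 for *Csf1r*. The median of the members stayed below 0 in every fit, from −0.91 in limma-voom to −0.29 against P4 cKO mice, and leaving out a mouse moved it from −0.80 to −0.45. No paired analysis was possible because these are different mice whose replicate numbers only follow the order of the samples, and no label ties a control to a cKO mouse. Depth limits the low members, of which *C5ar1* had as few as 15 counts in a library.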
